A study of Mus musculus with 19 samples.

Results

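The genes described here encode the proteins of the cytosolic ribosome, measured by poly(A) RNA sequencing of the suprarenal aorta of 19 mice. They were taken by name: every row of the deposited matrix whose gene symbol began with Rpl or Rps followed by a digit, p or a was kept, without pseudogene symbols (119 rows ending in -ps), without the 10 rows of the Rps6k kinases, and with a value of at least 10 in at least 4 of the 19 mice. This left 86 of the 14845 genes that passed the same filter, out of 20408 in the matrix. Of the 86, 46 encode proteins of the large subunit and 31 proteins of the small subunit, which together are called the 77 subunit genes below. Another 5 are paralogues of subunit genes (Rpl7l1, Rpl22l1, Rps4l, Rps27l and Rps27rt), 1 matched by name but encodes no ribosomal protein (Rps19bp1, an Rps19-binding protein), and 3 (Rps3a3, Rpl32l and Rpl37rt) are annotated as pseudogenes under symbols that the rule did not remove. Just inside the filter stood Rpl24, with a mean of 6.74 normalized counts over the 19 mice, and just outside it Rpl36al, with a mean of 7.29 and 3 mice at 10 or more.

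All mice were male, lacked ApoE on a C57BL6 background, carried the SMA-CreERT2 transgene, whose tamoxifen-dependent Cre is driven by the smooth muscle actin promoter, and had received tamoxifen; they ate regular chow and entered the study at 8 weeks of age. The 9 IKKβ-/- mice (KO in the labels) also carried floxed Ikbkb alleles, so that the gene is removed from smooth muscle cells and not from the other cells of the wall, and the 10 IKKβ+/+ mice (WT in the labels) were littermates without them. Osmotic pumps delivered angiotensin II, hereafter Ang II, or saline for 24 h (1000 ng/min/kg in the study's methods, a range from 500 in the labels), which gave 5 IKKβ+/+ saline, 5 IKKβ+/+ Ang II, 4 IKKβ-/- saline and 5 IKKβ-/- Ang II mice, named here by the numbers of their libraries. Libraries held 11382573 to 19906694 reads on genes of the matrix. Ikbkb itself was at 699.7 ± 66.8 normalized counts in the 10 IKKβ+/+ mice and 533.3 ± 78.9 in the 9 IKKβ-/- mice (SD), and 8 of the 9 lay below the lowest IKKβ+/+ mouse. Each group has its own block of library numbers, so that any batch that followed those numbers cannot be told apart from the group. In bulk tissue, fewer cells of a type and less RNA per cell cannot be told apart either.

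A ribosome holds a large subunit, which forms peptide bonds and houses the exit tunnel, and a small subunit, which reads the mRNA. Apart from the acidic stalk proteins, each protein is present in equal number per particle. The genes are spread over most chromosomes, and nearly all of them give short, abundant mRNAs whose first transcribed bases are a C and a run of pyrimidines, the 5′ terminal oligopyrimidine (TOP) tract. Translation of TOP mRNAs is under the control of mTORC1, a kinase complex that couples nutrients and growth signals to protein synthesis, so that the amount of ribosomal protein mRNA and the rate of its translation can move separately; only the amount was measured here.

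The TOP tract is shown for 6 members that were called in a comparison below and whose RefSeq start (GRCm38.p6) falls on a C followed by at least 4 pyrimidines. Each line gives 10 bases before the start and 20 from it, 5′ to 3′ on the gene's strand, with the pyrimidine run from the first transcribed base in capitals.
Rpl35 (chr2:39005112-39005141, minus strand): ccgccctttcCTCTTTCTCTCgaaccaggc
Rps18 (chr17:33955646-33955675, minus strand): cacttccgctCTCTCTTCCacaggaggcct
Rpl35a (chr16:33056472-33056501, plus strand): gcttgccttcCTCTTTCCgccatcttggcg
Rpl14 (chr9:120571507-120571536, plus strand): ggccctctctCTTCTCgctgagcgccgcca
Rplp2 (chr7:141447641-141447670, plus strand): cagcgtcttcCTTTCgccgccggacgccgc
Rps21 (chr2:180257369-180257398, plus strand): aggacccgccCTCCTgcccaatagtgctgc

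RefSeq promoters, from 250 bases before to 50 after the start, were at hand for 64 of the 86 members. At the annotated start, 15 of the 64 (23.4%) held such a tract, against 3.01% of the 27025 genes of the promoter table. The ETS-type motif CCGGAAG, searched on both strands anywhere in the 300 bases of the table, was in 25 of 64 members (39.1%) and in 9.93% of all genes. The YY1-type motif AAGATGGC, searched in the same way, was in 6 of 64 (9.38%) and in 3.19% of all genes. TATAAA between 40 and 15 bases before the start, on the gene's strand, was in 1 of 64 members and in 2.41% of all genes. Members that were called in a comparison and those that were not held the tract in 6 of 26 and 9 of 38 cases, and the ETS-type motif in 15 of 26 and 10 of 38. These are descriptions of letters in a window, and a tract that begins a few bases from the annotated start is missed by this search.

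Although nearly all proteins of the ribosome are present in equal numbers, the counted level of the 77 subunit genes differed 1711-fold between the highest and the lowest. Rpl4 was highest, with a mean of 11533 normalized counts over the 19 mice, followed by Rps3 with 6426 and Rpl8 with 6288. The lowest were Rpl24 with 6.74, Rps29 with 12.6 and Rps6 with 20.99. Per kilobase of transcript, Rps15 (11359 normalized counts per kilobase), Rps14 (10413) and Rps21 (7975) were highest among the 86 members, and Rpl24 (9.96), Rps3a3 (20.9) and Rps6 (23.9) lowest. Rps6 encodes the protein that S6 kinases phosphorylate.

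How much of each transcript is also found elsewhere differed as widely. Ribosomal protein genes have many processed pseudogenes, and a read that fits several places is not a count for the gene when only uniquely placed reads are counted. For each member, every 84-base window of its transcript, the read length of the study, was searched in the transcripts of all other genes (GENCODE M21, GRCm38). A median of 47.5% of the windows of a subunit gene were also in another gene, and 34 of the 77 genes shared at least 50% of theirs. Rps3 shared no window, and Rps27 shared 98.5%, Rpl5 92.0% and Rpl10 91.8%. All 13 subunit genes with a mean under 100 normalized counts shared at least 28.7% of their windows. Copies in the genome that are not annotated as transcripts were not searched, and the part of shared reads in the difference between members was not tested. Rps2, with 68.9% shared, stood at 3485 normalized counts and Rpl9, with 89.8%, at 1183, while Rps29, with 28.7%, stood at 12.6. Exons of another gene on the same strand covered 47.0% of Rpl24 (Gm28037), 35.4% of Rpl13a (Gm45713), 20.6% of Rps10 (the read-through gene RPS10-NUDT3) and 14.5% of Rpl32 (the small nucleolar RNA Snora7a). For comparisons between mice, 38 subunit genes with a mean of at least 100 normalized counts and under 50% of windows shared, 23 of the large and 15 of the small subunit, are given separately below as the clearly counted genes, a set chosen after seeing the data.

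**Figure D1:**
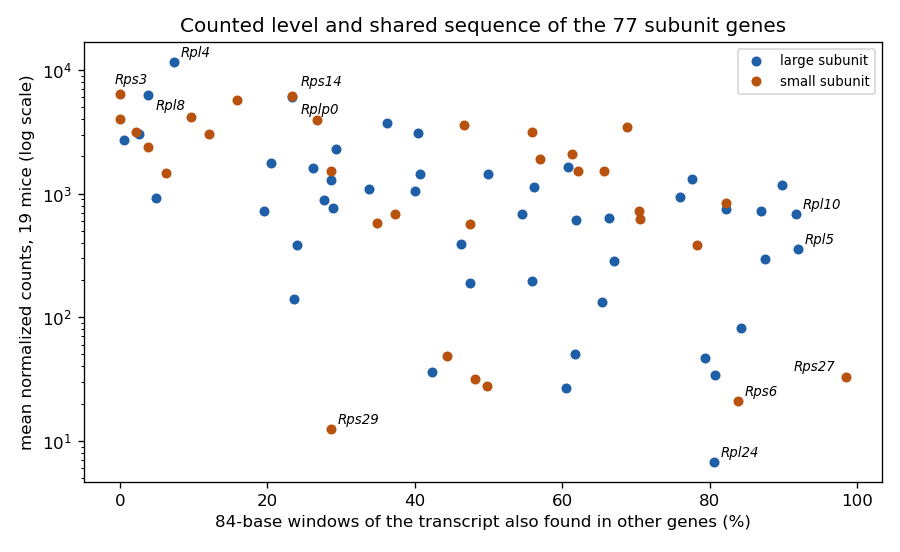
Mean normalized counts over 19 mice (vertical, log scale) against the percent of each transcript's 84-base windows that are also in another gene's transcript (horizontal), 1 point for each of the 77 subunit genes, coloured by subunit. Rpl4 stands at 11533 with 7.29% of windows shared, and Rpl24 at 6.74 with 80.6%.

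The first comparison asked what 24 h of Ang II did in mice with IKKβ in smooth muscle. Ribosomal protein mRNAs were higher with Ang II: 77 of 86 members had a positive log2 fold change, and 9 rose past the threshold of the study (adjusted p under 0.1 and fold over 1.2, here from limma with Benjamini-Hochberg adjustment over all 14845 genes), which is 10.5% of the members, beside 4.33% of all genes tested that were called higher. None fell, where 4.33% of all genes tested were called lower and 8.66% were called in either direction. The median log2 fold change was 0.24 over the members, which is 17.98% more, and 0.01 over all genes tested. The large subunit had 4 of 46 genes called and a median of 0.25, the small subunit 4 of 31 and a median of 0.20, and the other call was Rps27l, a paralogue. In 15 of 86 members every Ang II mouse lay above every saline mouse, beside 3.95% of all genes, and in 0 members the reverse held, beside 4.47%.

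Rplp0 (chr5:115559467-115563727), which anchors the stalk that binds elongation factors, was the member with the lowest adjusted p. Its normalized counts were 4469, 5354, 4734, 5380 and 4588 in the saline mice and 6915, 5705, 6108, 7642 and 6245 in the Ang II mice of this genotype. The groups did not overlap, and the log2 fold change was 0.41 ± 0.10 (SE; limma adjusted p = 0.032). Rps2 (chr17:24718116-24721929), a protein of the mRNA entry channel, was at 2637, 2907, 2832, 3021 and 2625 with saline and at 4309, 3136, 3687, 5140 and 3526 with Ang II. Mouse X2358 held the highest value of either group, and without overlap the log2 fold change was 0.48 ± 0.12 (SE; limma adjusted p = 0.036). Rps27l (chr9:66946086-66949516), a paralogue of Rps27 known as a target of p53, rose from 632, 642, 564, 616 and 535 to 785, 807, 694, 1062 and 720, a log2 fold change of 0.43 ± 0.11 (SE; limma adjusted p = 0.038). X2358 again stood highest.

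Another 4 called genes moved by smaller steps. Rpl32 was 26.0% higher in the fit, at 2548 ± 157.5 with saline and 3220 ± 329 with Ang II (SD, n = 5 each; limma adjusted p = 0.073). Rpl19 was at 542.6 ± 25.7 and 658.4 ± 50.5 (limma adjusted p = 0.076), and Rps26, a protein at the mRNA exit, at 1329 ± 73.2 and 1627 ± 157 (limma adjusted p = 0.08). Rps16, with 492.2 ± 38.4 and 607.7 ± 70.2, was the last to pass (limma adjusted p = 0.098). Rpsa, the laminin receptor protein at the mRNA exit, had a log2 fold change of 0.43 (limma adjusted p = 0.084), and Rpl41, the smallest protein of the ribosome, 0.58 (limma adjusted p = 0.089). Rpl41 ran from 1333 to 1817 with saline and from 1820 to 3213 with Ang II, the highest being X2350.

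The members with the largest log2 differences were not the ones called. Rps29, Rpl23a and Rpl10a each had 0.69, with adjusted p of 0.47, 0.26 and 0.16 (limma), and Rps29 had 6.17 to 16.1 normalized counts in the saline mice. The lowest was Rpl22, an RNA-binding protein on the surface of the large subunit, at -0.22 ± 0.14 (SE; limma adjusted p = 0.392). Its saline mice had 2222, 2770, 2472, 2619 and 2389 normalized counts and its Ang II mice 2032, 1993, 2448, 2222 and 2012, so that the groups overlapped. Among the 38 clearly counted genes, 35 had a positive log2 fold change, 6 rose and the median was 0.23. The count of 9 called members fell to 0 without X2358 and to 2 without X2350, both Ang II mice. It fell to 3 when X2370, X2373, X2376 or X2378 of the saline mice was left out. The median of the members stayed between 0.18 and 0.28 over all left-out mice. Calls among all genes in the same fits are not given, so whether this loss was particular to the members cannot be told.

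In IKKβ-/- mice the same treatment gave no called member. Of 86 members 33 had a positive log2 fold change with Ang II, the median was -0.03, and limma called 0, beside 2.59% of all genes called higher, 2.69% lower and 5.29% in either direction; 3 of 86 members and 2636 of 14845 genes had an unadjusted p under 0.05, and DESeq2 and edgeR also called 0 members. With the adipocyte level of each mouse as a covariate, 20 of 86 were positive and the median was -0.12; all 6 tested adipocyte markers rose in this comparison. The medians were -0.03 for the large and -0.03 for the small subunit. No member separated the groups, where 2.41% of all genes did so upward and 2.88% downward. Rplp0 was at 6091, 5908, 5655 and 5634 normalized counts with saline and 6952, 5647, 7577, 7296 and 6073 with Ang II, a log2 fold change of 0.20 ± 0.11 (SE; limma adjusted p = 0.363). Rps2 was at 3548, 3482, 2809 and 3296 with saline and 4004, 3058, 4391, 4247 and 3555 with Ang II, a log2 fold change of 0.22 (limma adjusted p = 0.397). For both genes the ranges overlapped, and X2383 held the lowest Ang II value.

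The highest log2 fold changes in this genotype were those of Rps6 (0.54), Rps28 (0.50) and Rpl24 (0.44), and the lowest those of Rps29 (-0.69), Rps27 (-0.37) and Rpl27 (-0.26). All 6 had a mean under 100 normalized counts, and none passed the test. Rps3a1, a protein of the small subunit, had a mean of 3133 normalized counts but shared 55.9% of its windows. Its log2 fold change was -0.23 ± 0.10 (SE; limma adjusted p = 0.252). Its saline mice were at 3887, 4525, 3877 and 3174 normalized counts and its Ang II mice at 2728, 3138, 3516, 3661 and 3414. It was called without X2409 of the saline mice (log2 fold change -0.32), and Rpsa (0.40) and Rps28 (0.80) were called without X2383 of the Ang II mice.

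The test of the difference between the Ang II effects of the genotypes called 0 members and 0 of all genes tested (0.00%) with limma. The difference was negative, a smaller Ang II effect in IKKβ-/- mice, in 79 of 86 members, with a median of -0.21 on the log2 scale (0.00 over all genes tested), -0.23 for the large and -0.17 for the small subunit. The 1272 other tested genes with transcripts under 1000 bases had a median of -0.11. With the length trend of each library removed, as described below, 16 of 86 members were positive and their median was -0.15. Unadjusted p was under 0.05 for 5 members, Rps27l, Rpl35, Rpl19, Rpl12 and Rpl26, beside 1654 of all 14845 genes; edgeR also called 0 genes, and DESeq2 called 279 genes of which 0 were members. The 3 lowest differences were those of Rps29 (-1.38), Rpl23a (-0.95) and Rpl12 (-0.81), and the 3 highest those of Rps6 (0.56), Rpl36a (0.25) and Rpl24 (0.17). All of these but Rpl12 had a mean under 100 normalized counts.

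The largest shift of the family lay between the genotypes with saline, a comparison of what loss of IKKβ in smooth muscle goes with before any Ang II. Here 82 of 86 members had a positive log2 fold change in IKKβ-/- mice, the median was 0.37 (29.3% more; -0.02 over all genes tested), and 29 members rose, 33.7% of them beside 3.40% of all genes called higher. None fell, where 2.07% of all genes were called lower and 5.47% in either direction. Of the large subunit 17 of 46 rose (37.0%) with a median of 0.39, of the small subunit 11 of 31 (35.5%) with a median of 0.33, and of the paralogues Rps27l. In 33 of 86 members every IKKβ-/- mouse lay above every IKKβ+/+ mouse, beside 4.68% of all genes, and in 0 the reverse held, beside 4.08%. Among the 38 clearly counted genes all 38 were positive and 19 rose, with a median of 0.43. The other 39 subunit genes had 36 positive, 9 called and a median of 0.30.

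Rps20 (chr4:3831334-3835665), a protein of the small subunit head, had the lowest adjusted p. It stood at 1007, 1301, 1149, 1315 and 1293 normalized counts in IKKβ+/+ and at 1654, 1736, 1868 and 1472 in IKKβ-/- mice with saline. The lowest IKKβ-/- mouse, X2409, was above the highest IKKβ+/+ mouse, and the log2 fold change was 0.47 ± 0.10 (SE; limma adjusted p = 0.037). Rps3a1 (chr3:86137940-86142702) was at 2577, 2792, 2696, 2986 and 2896 and at 3887, 4525, 3877 and 3174, a log2 fold change of 0.46 ± 0.10 (SE; limma adjusted p = 0.043). Rps4x (chrX:102184941-102189394), whose human homologue has a copy on the Y chromosome, was at 3000, 3158, 3087, 3325 and 3380 and at 4306, 4360, 3944 and 3763, a log2 fold change of 0.36 ± 0.09 (SE; limma adjusted p = 0.052). In these 3 small subunit genes the groups did not overlap, and Rps3a1 shared 55.9% of its windows. Rps20 and Rps4x were singled out after their values were seen.

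Of the 8 listed genes of proteins around the exit of the nascent chain tunnel 5 rose (62.5%). Of all 86 members 33.7% rose here, beside 3.40% of all genes called higher. All 8 had a positive log2 fold change, with a median of 0.52, beside 0.37 over all members. Whether these 8 differ from the rest of the family was not tested. Rpl26 (chr11:68901583-68906989) was at 1034, 1233, 1108, 1070 and 1188 normalized counts in IKKβ+/+ and 1696, 2253, 1820 and 1386 in IKKβ-/- mice, a log2 fold change of 0.65 ± 0.15 (SE; limma adjusted p = 0.048). Rpl31 had a log2 fold change of 0.60 (limma adjusted p = 0.079), Rpl39, whose small protein lines the tunnel, 0.61 (limma adjusted p = 0.096), Rpl35 0.43 (limma adjusted p = 0.063) and Rpl19 0.36 (limma adjusted p = 0.058). Of these, Rpl39 alone overlapped between the groups, since X2409 with 758 lay below X2372 with 815.

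Other large log2 fold changes were those of Rps27rt (0.78), which was not called, and Rpl12 (0.76), which was (limma adjusted p = 0.084). Rpl35a, one of the genes mutated in Diamond-Blackfan anaemia, had 0.58 (limma adjusted p = 0.049), Rpl34 0.61 (limma adjusted p = 0.05), and Rps24, another gene of that disease, 0.65 (limma adjusted p = 0.056). Rpl36 had 0.57 (limma adjusted p = 0.068). Of the 19 listed genes mutated in Diamond-Blackfan anaemia, 19 had a positive log2 fold change, beside 82 of all 86 members. Of the 19, 6 rose (31.6%), a share near the 33.7% of all members. The 3 lowest were Rps6 (-0.42), Rpl24 (-0.24) and Rpl36a (-0.07), each with under 100 normalized counts on average and none called.

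The size of the shift differed little from mouse to mouse left out, and the number of calls differed much. The median ranged from 0.32 to 0.42 over the 19 left-out mice, all of it above 0. The 29 calls became 0 without X2406, 1 without X2403 and 10 without X2401 of the IKKβ-/- saline mice, and 2 without X2373, 3 without X2370, 8 without X2376, 18 without X2372 and 19 without X2378 of the IKKβ+/+ saline mice. Without X2409 there were 41. Calls among all genes without the same mice are not given. Whether these changes in the number of calls were particular to the members therefore cannot be told. At an adjusted p under 0.05 in place of 0.1, 4 members were called, beside 136 of all 14845 genes in either direction.

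**Figure D2:**
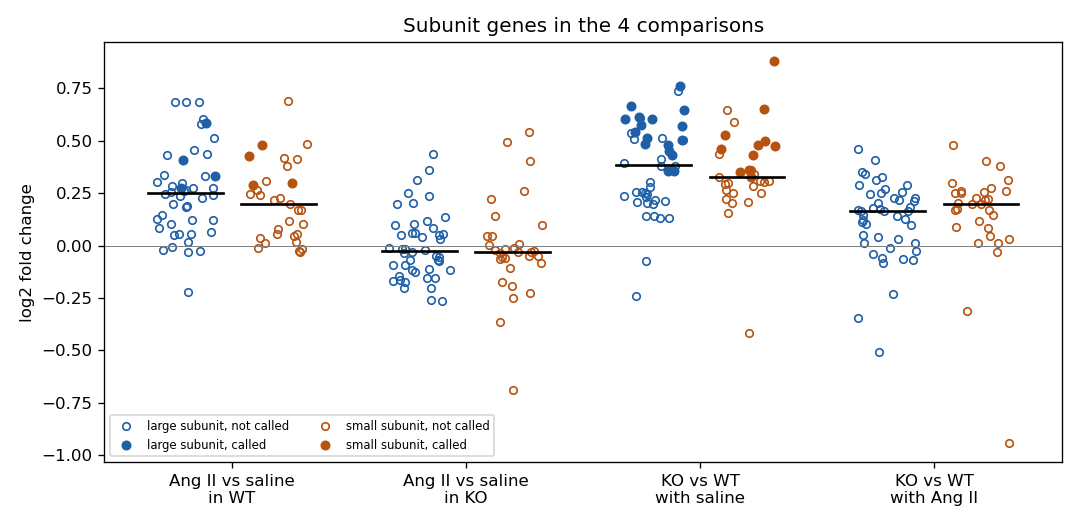
Log2 fold change (vertical) of the 46 large and 31 small subunit genes in the 4 comparisons (horizontal), 1 point a gene, filled where limma called it, with a bar at each median. The medians are 0.25 and 0.20 for Ang II in IKKβ+/+ (WT), -0.03 and -0.03 for Ang II in IKKβ-/- (KO), 0.39 and 0.33 between genotypes with saline, and 0.16 and 0.20 with Ang II.

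With Ang II no member was called between the genotypes by limma. Of 86 members 71 had a positive log2 fold change in IKKβ-/- mice and the median was 0.17 (-0.01 over all genes tested), but limma and edgeR called 0 members, beside 0.0202% of all genes called higher, 0.108% lower and 0.128% in either direction. With the length trend of each library removed, as described below, 54 of 86 were positive and the median was 0.06, and with single mice left out it ran from 0.11 to 0.24. An unadjusted p under 0.05 was found for 14 of 86 members and 2118 of 14845 genes, a share near the background. DESeq2 called 3 members, Rps4x, Rpl22 and Rps20, beside 161 of 14845 genes called higher. In Rps20 and Rps4x every IKKβ-/- mouse lay above every IKKβ+/+ mouse, which held for 0.653% of all genes (0.882% in the other direction, with 0 members). Rps4x was at 3221, 2985, 3613, 3213 and 3054 normalized counts in IKKβ+/+ and at 3633, 3640, 4449, 4037 and 4055 in IKKβ-/- mice, a log2 fold change of 0.30 ± 0.08 (SE; limma adjusted p = 0.168). Rpl22 had a log2 fold change of 0.46 (limma adjusted p = 0.184). The highest were those of Rps14 (0.48), Rpl22 and Rpl37 (0.41), and the lowest those of Rps29 (-0.94), Rpl28 (-0.51) and Rpl23a (-0.34). Rps14 was uneven within IKKβ-/- Ang II mice, at 5578, 4495, 10086, 11534 and 6157 normalized counts. Rps4x and Rpl22 were called by limma without X2356 of the IKKβ+/+ Ang II mice or without X2380 of the IKKβ-/- Ang II mice, and Rpl22 without X2383.

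**Figure D3:**
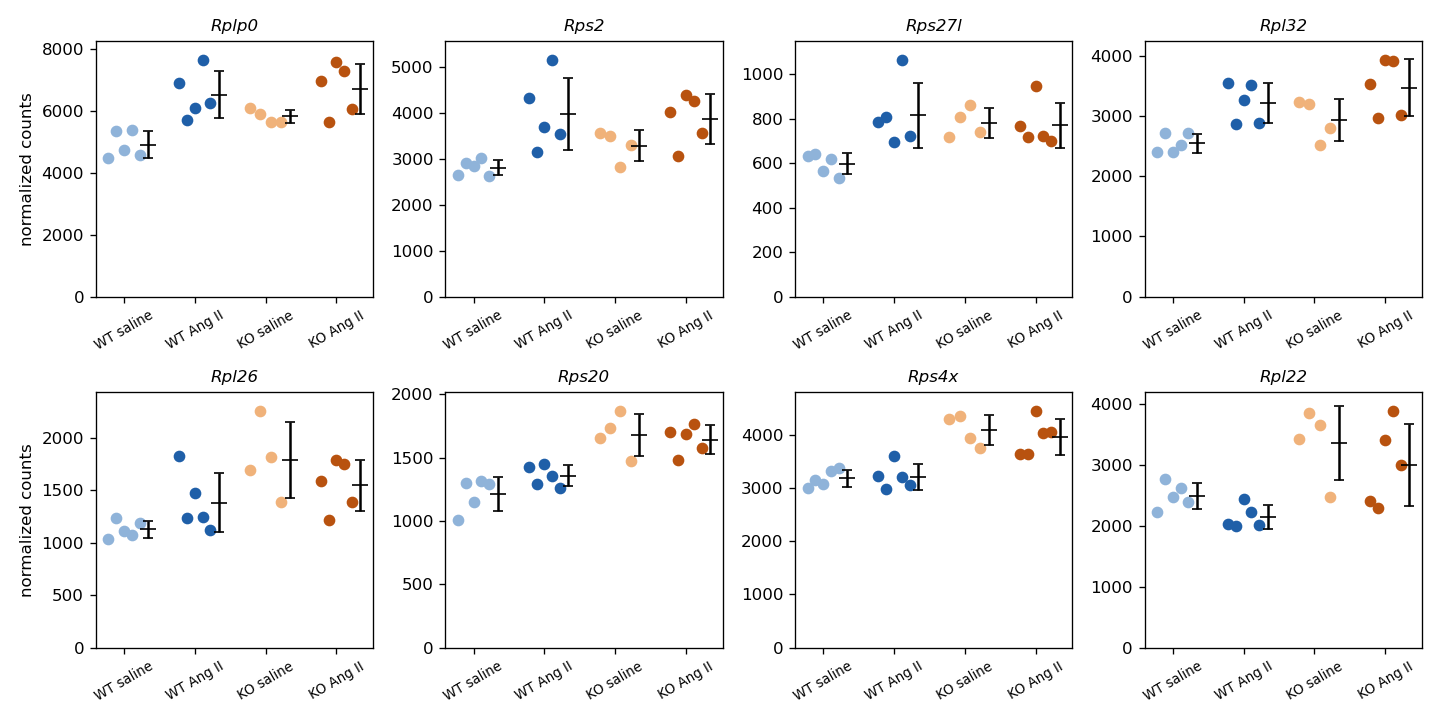
Normalized counts (vertical, from 0) of 8 members in each mouse of the 4 groups, with the group mean and SD as a bar beside the points. The first row holds genes called with Ang II in IKKβ+/+ (WT) mice, where Rplp0 went from 4905 ± 432 to 6523 ± 762, and the second row holds Rpl26, Rps20 and Rps4x, called between genotypes with saline, and Rpl22, which was called in neither.

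The 2 comparisons that hold calls share the 5 IKKβ+/+ saline mice, so their values are given side by side and not as evidence for each other. Rpl19, Rpl41 and Rps27l were called in both. Rpl19 had a log2 fold change of 0.28 with Ang II and 0.36 between genotypes, Rpl41 0.58 and 0.67, and Rps27l 0.43 and 0.38. Rplp0, Rps2, Rpl32, Rps26, Rpsa and Rps16 were called only with Ang II, and had 0.25, 0.22, 0.20, 0.20, 0.34 and 0.30 between genotypes. In the other direction, Rps3a1, Rps4x and Rps21 were called between genotypes and had -0.03, 0.01 and -0.03 with Ang II. Whether a gene differs between these comparisons was not tested.

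A score of the family in each mouse, the mean over the 77 subunit genes of the log2 value minus the gene's mean over all mice, shows which group stood apart. It was -0.338, -0.124, -0.307, -0.216 and -0.196 in X2370, X2372, X2373, X2376 and X2378, the IKKβ+/+ saline mice, with a mean of -0.236 ± 0.087 (SD). The IKKβ+/+ Ang II mice X2350, X2352, X2356, X2358 and X2359 had 0.186, -0.135, 0.0342, 0.065 and -0.157, the IKKβ-/- saline mice X2401, X2403, X2406 and X2409 had 0.195, 0.344, 0.0843 and -0.0842, and the IKKβ-/- Ang II mice X2380, X2383, X2384, X2385 and X2386 had 0.186, -0.163, 0.345, 0.28 and 0.00252. The saline mice with IKKβ were the low group, and X2352, X2359 and X2383 of the other groups fell within their range. The means of the other groups were -0.001, 0.135 and 0.13, with SDs of 0.144, 0.181 and 0.208.

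The scores of the large and the small subunit lay close to each other in every group. The score of the large minus that of the small subunit had group means of -0.025 ± 0.065, 0.025 ± 0.082, -0.003 ± 0.048 and 0.003 ± 0.123 (SD) in the order IKKβ+/+ saline, IKKβ+/+ Ang II, IKKβ-/- saline and IKKβ-/- Ang II, so that these means lay within 1 SD of each other. Over the 38 clearly counted genes the same difference was -0.042 ± 0.035, 0.018 ± 0.083, 0.020 ± 0.050 and 0.008 ± 0.087 (SD), and the saline groups of the genotypes lay further apart than either SD. The ratio of the summed counts of the large to those of the small subunit was 1.02 ± 0.023, 1.05 ± 0.035, 0.983 ± 0.026 and 1.01 ± 0.063 (SD) in the same order, where IKKβ-/- saline lay more than 1 SD below both IKKβ+/+ groups. Whether the subunits differ was not tested. Across the 19 mice the median Pearson correlation of log2 values over pairs of subunit genes was 0.57 for all 2926 pairs, 0.56 within the large subunit, 0.62 within the small subunit and 0.57 between them, and 0.73 among the 38 clearly counted genes. These are descriptions over mice whose values share library and normalization. The correlation of a subunit gene with the mean of the others had a median of 0.77 and was highest for Rps18, Rplp2, Rplp1, Rpl8 and Rps15, between 0.95 and 0.96. It was lowest for Rps29 (-0.16), Rps6 (-0.05), Rpl36a (0.10), Rpl28 (0.17) and Rpl7 (0.22). Of these Rpl7 alone was well counted, with a mean of 3740 normalized counts and log2 fold changes between -0.02 and 0.14 in the 4 comparisons.

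**Figure D4:**
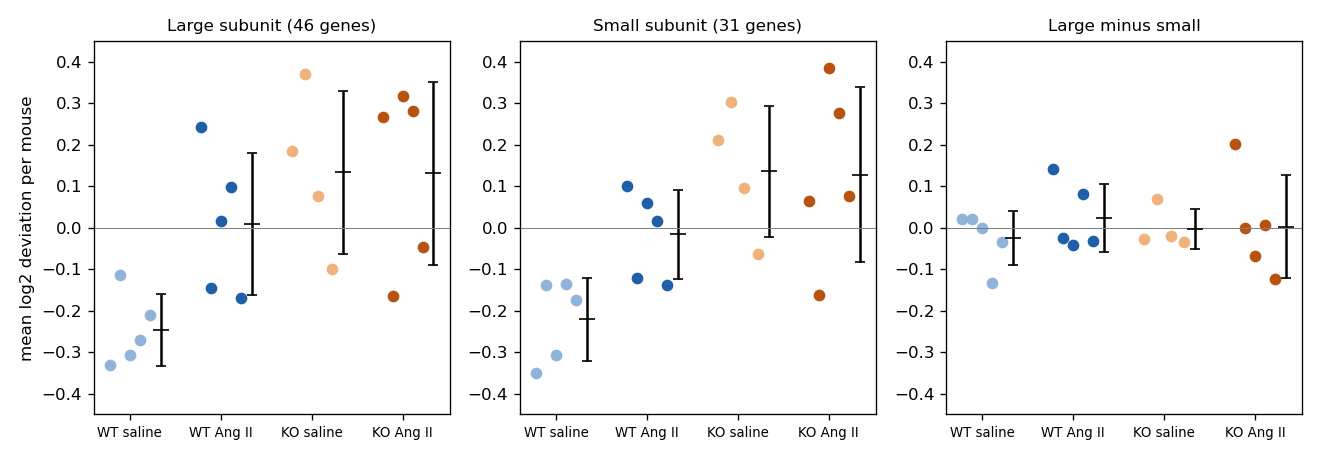
Scores of the large subunit, the small subunit and their difference (vertical, mean log2 deviation from the gene's mean over 19 mice) in each mouse of the 4 groups, with the group mean and SD beside the points. The family score is lowest in IKKβ+/+ (WT) saline mice, between -0.338 and -0.124, and the difference of the subunits lies between -0.133 and 0.202 in all mice.

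In shares of all normalized counts the members made up 0.838 ± 0.057% in IKKβ+/+ saline, 0.860 ± 0.065% in IKKβ+/+ Ang II, 0.921 ± 0.172% in IKKβ-/- saline and 0.928 ± 0.087% in IKKβ-/- Ang II mice (SD). These shares rest on the few highest genes and on the total, in which mitochondrially encoded genes took 5.99 to 9.07%, 10.1 to 14.1%, 8.89 to 38.7% and 7.88 to 37.2% in the same order of groups. Of the counts outside them, the members had 0.911 ± 0.074, 0.983 ± 0.075, 1.17 ± 0.156 and 1.22 ± 0.188% (SD).

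A property of the libraries moved with the family. In each mouse, the log2 deviation of the tested genes that are not members was regressed on the log2 length of their transcripts; a negative slope means that short transcripts were relatively high in that library. The slope was 0.015 to 0.142 per doubling of length in IKKβ+/+ saline, -0.018 to 0.052 in IKKβ+/+ Ang II, -0.116 to 0.042 in IKKβ-/- saline and -0.112 to 0.060 in IKKβ-/- Ang II mice. X2403 and X2384, with the highest family scores, had the lowest slopes, -0.116 and -0.112, and X2409 and X2383, the lowest scores of their groups, had 0.042 and 0.060. Subunit genes are short, with a median transcript of 799 bases against 2842 for the other tested genes. In the 1272 other tested genes under 1000 bases the log2 fold changes had a median of 0.22 between genotypes with saline and 0.09 with Ang II in IKKβ+/+ mice, and those of 1000 bases or more had -0.04 and 0.00. With the length trend of each library removed, the median of the members was 0.18 between genotypes with saline, with 11 called, and 0.16 with Ang II in IKKβ+/+ mice, with 4 called. Over all genes in the same fit, 3.57% were called higher between genotypes with saline (median 0.02). With Ang II in IKKβ+/+ mice 4.19% of all genes were called higher (median 0.03). The 4 calls among 86 members were thus a share near that of all genes, while the median of the members stayed higher. Rplp0, Rps2, Rpsa and Rpl41 kept their calls with Ang II in this fit, and Rps20, Rps24, Rpl5, Rpl21, Rpl23, Rpl26, Rpl34 and Rplp2 were among those that kept theirs between genotypes, where Rps15a was called in addition. The transcripts taken for Rps20 and Rps15a were 3706 and 5179 bases, so the fit treated both as long. It raised their log2 fold changes from 0.47 to 0.57 and from 0.29 to 0.43. Their calls in this fit therefore rest on those lengths. Whether the length trend accounts for the shift was not tested beyond this fit.

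**Figure D5:**
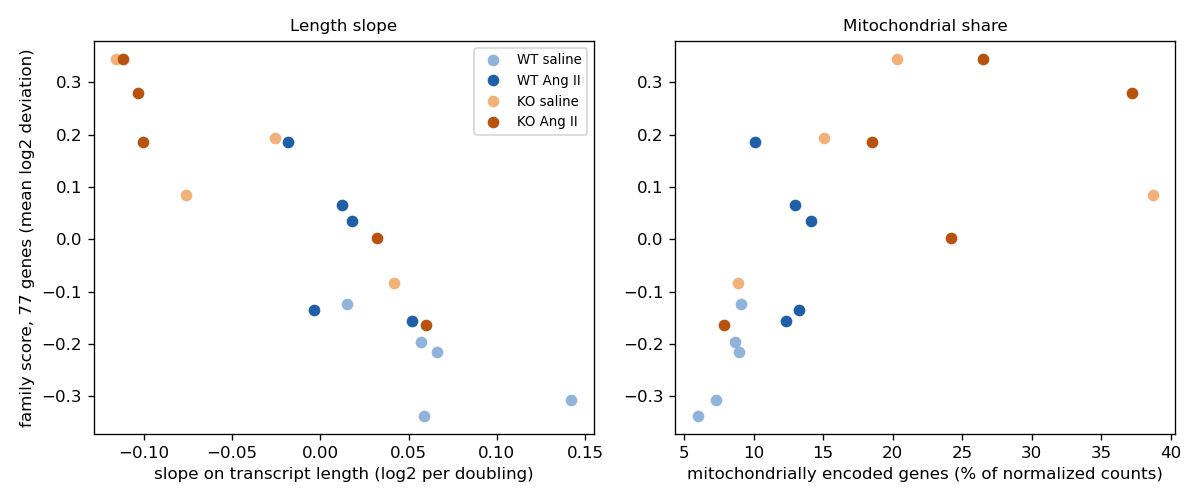
Family score of the 77 subunit genes (vertical) in each of 19 mice against the slope of other genes on transcript length (left, log2 per doubling of length) and against the share of mitochondrially encoded genes (right, percent of normalized counts), coloured by group. X2403 and X2384 combine the highest scores with slopes of -0.116 and -0.112, and X2373, at -0.307, has the highest slope, 0.142.

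The roles within the ribosome were described from lists. Of all 86 members 10.5% were called higher with Ang II in IKKβ+/+ mice and 33.7% between genotypes with saline. The shares of all genes called higher were 4.33% and 3.40%. Whether a list differs from the rest of the family was not tested. All 4 stalk genes had a positive log2 fold change with Ang II in IKKβ+/+ mice (median 0.37, 1 called) and between genotypes with saline (median 0.51, 2 called). There Rplp1 had 0.34 and 0.51 with no call, Rplp2 0.33 and 0.51 with the second called (limma adjusted p = 0.059), and Rpl12, which binds near the stalk base, 0.60 and 0.76 with the second called. Rpl12 was at 392 normalized counts in X2350 and at 125.9 to 192.8 in the other IKKβ+/+ Ang II mice. Rpl5 and Rpl11, which with 5S rRNA form the particle that binds Mdm2 and so links ribosome assembly to p53, had -0.03 and 0.51 with Ang II and 0.48 and 0.74 between genotypes, and Rpl5 rose in the latter (limma adjusted p = 0.096). Rpl11 had only 10.6 to 56.8 normalized counts in all mice.

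At the mRNA entry, Rps3, the partner of Rps2, had log2 fold changes of 0.06 with Ang II in IKKβ+/+ mice and 0.30 between genotypes with saline, where Rps2 had 0.48 and 0.22. Rps3 was at 5707 ± 620, 5920 ± 461, 7050 ± 805 and 7152 ± 1432 normalized counts (SD) in the order IKKβ+/+ saline, IKKβ+/+ Ang II, IKKβ-/- saline and IKKβ-/- Ang II, and was not called. At the mRNA exit, Rpsa, Rps26 and Rps28 had log2 fold changes of 0.43, 0.29 and 0.42 with Ang II in IKKβ+/+ mice, and the first 2 were called.

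Ribosomal protein genes are common reference genes for quantitative PCR. Of the 5 such genes listed (Rplp0, Rpl13a, Rpl19, Rpl32 and Rps18), Rplp0, Rpl19 and Rpl32 rose in IKKβ+/+ mice given Ang II (median of 0.33 over the 5), and Rpl19 and Rps18 rose between genotypes with saline (limma adjusted p = 0.058 and 0.097), with a median of 0.28. Rpl13a had 0.44 and 0.28 and Rps18 0.27 and 0.50. Of all 86 members 10.5% rose in the first of these comparisons and 33.7% in the second, beside 4.33% and 3.40% of all genes. In IKKβ-/- mice with Ang II against saline none of the 5 was called. Their log2 fold changes there ran from -0.06 to 0.36 with a median of 0.20, and 3 of the 5 were positive. An unadjusted p under 0.05 (limma) was found for 2 of them, beside 3 of all 86 members.

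Of the paralogues, Rpl22l1, which can take the place of Rpl22 in the ribosome, had log2 fold changes of 0.23 with Ang II in IKKβ+/+ mice and 0.58 between genotypes with saline (limma adjusted p = 0.514 and 0.112). Its log2 ratio to Rpl22 was -2.03 in IKKβ+/+ saline and -1.58 in IKKβ+/+ Ang II mice, a difference of 0.45 ± 0.14 (SE; 5 against 5 mice, two-sided exact permutation p = 0.0238, adjusted p = 0.286 over 12 ratio tests). The ratios Rps27l/Rps27 and Rps4l/Rps4x did not pass in any comparison (exact permutation p from 0.222 to 0.706), where the smallest p the design allows is 0.00794 with 5 against 5 and 0.0159 with 5 against 4 mice. Rps27 itself had 98.5% of its windows shared and a mean of 32.6 normalized counts, so its ratio is of little use. Rpl7l1, a paralogue that acts in assembly of the large subunit, was level, with means of 1016, 1096, 977.7 and 994.7 normalized counts in the order of groups above. Rps19bp1 had 0.39 with Ang II in IKKβ+/+ mice and 0.38 between genotypes with saline (limma adjusted p = 0.258 and 0.307). Rpl3l, the striated muscle paralogue of Rpl3, was no member.

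Ribosomal proteins whose symbols the rule does not reach behaved within the range of the members. Fau, the source of the small subunit protein eS30, had 0.28 with Ang II in IKKβ+/+ mice and 0.53 between genotypes with saline (limma adjusted p = 0.363 and 0.109). Rack1, a scaffold on the small subunit, had 0.06 and 0.27 (limma adjusted p = 0.837 and 0.27).

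Other genes of the translation machinery were described from lists. Of 14 elongation factors and other TOP genes, Eef1g rose with Ang II in IKKβ+/+ mice (0.31; limma adjusted p = 0.089) and Eif3f between genotypes with saline (0.33; limma adjusted p = 0.059), and the medians were 0.04 and 0.21. Of 77 mitochondrial ribosomal protein genes, which are encoded in the nucleus, 72 were positive and 10 rose with Ang II in IKKβ+/+ mice (median 0.22), beside 4.33% of all genes called higher, among them Mrpl52 (0.69) and Mrps18b (0.71), and 67 were positive and 5 rose between genotypes with saline (median 0.21), beside 3.40% of all genes, among them Mrpl58 (0.45). Their medians in IKKβ-/- mice with Ang II against saline and between genotypes with Ang II were 0.09 and 0.07, with no call. Of 5 chaperones of ribosomal proteins, Ltv1, which acts in assembly of the small subunit, rose with Ang II in IKKβ+/+ mice (0.55; limma adjusted p = 0.042). Of 7 genes of ribosome rescue, only 2 were positive between genotypes with saline (median -0.10). Among them Nemf, which marks stalled large subunits, rose (0.61; limma adjusted p = 0.078). Of 9 p53 targets, Cdkn1a rose with Ang II in IKKβ+/+ mice (1.02; limma adjusted p = 0.02), and no other was called.

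The markers of cell types that the tissue could hold moved between the same groups. The summed normalized counts of 8 smooth muscle markers ran from 334569 to 446231 in IKKβ+/+ saline, 464324 to 647800 in IKKβ+/+ Ang II, 435198 to 593177 in IKKβ-/- saline and 309864 to 553760 in IKKβ-/- Ang II mice. With Ang II, 7 of the 8 were positive in IKKβ+/+ mice (median 0.33), where Cnn1, Tagln and Des rose. In IKKβ-/- mice 1 of 8 was positive with Ang II (median -0.21). Between genotypes, 7 of 8 were positive with saline (median 0.29) and 0 with Ang II (median -0.29). The sums of 8 macrophage markers ran from 8101 to 10945, 6221 to 10023, 4969 to 7177 and 3554 to 14030 in the same order of groups. Between genotypes with saline 0 of these 8 were positive (median -0.73), and Cd68 and Adgre1 fell. With Ang II in IKKβ+/+ mice 1 of 8 was positive (median -0.32). The sums of 7 adipocyte markers ran from 914.6 to 9040, 2646 to 6452, 1056 to 4218 and 2436 to 24999, and 6 of them rose with Ang II in IKKβ-/- mice. Those of 7 endothelial markers ran from 21824 to 36995, 12067 to 24073, 13748 to 29688 and 7726 to 27033; with Ang II in IKKβ+/+ mice all 7 had a negative log2 fold change (median -0.72) and Tek fell, and between genotypes with saline 1 of 7 was positive (median -0.47). Those of 6 fibroblast markers ran from 65542 to 87109, 25596 to 80947, 50776 to 69886 and 26958 to 100367; all 6 were negative in each of these comparisons (medians -0.67 and -0.58), and Lum fell in the first. Of single genes in other lists, Uchl1 (neuron, 2 of 3 tested genes positive) and Ckm (skeletal muscle, 3 of 5) rose with Ang II in IKKβ+/+ mice, and Sox10 (Schwann cell, 5 of 6) rose with Ang II in IKKβ-/- mice. The sums of 7 neuron markers ran from 1038 to 1346, 1277 to 8713, 969 to 1536 and 971 to 1244 in the same order. The median in IKKβ+/+ Ang II mice was 1631, so that this sum was uneven within the group. Neuron content itself was not measured. Markers of T cells summed to at most 70.4 in any mouse, with Cd3d, Cd3e, Cd3g, Lck and Trac at 0 in some. With the adipocyte level of each mouse as a covariate, the members had a median of 0.40 between genotypes with saline and 10 calls, and 0.21 with Ang II in IKKβ+/+ mice and 6 calls. In the same fit 0.633% and 4.65% of all genes were called higher. The part of the other cell types in the shift of the family was not tested.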

How the data were processed

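Suprarenal aortas of 19 mice were sequenced by the authors as stranded single-end poly(A) libraries. Reads were trimmed with Trimmomatic 0.35 and aligned to GRCm38 with STAR 2.7.1a (Gencode genes), and read counts per gene were divided by DESeq2 1.30.1 size factors. The deposited values are this normalized signal; values were whole multiples of 1 step per library within 0.01 read for 100% of values, and reads so recovered entered count tests only (edgeR called 1352 and DESeq2 1887 genes with Ang II in IKKβ+/+ mice). No library column was left unused. Genes with a value of at least 10 in at least 4 mice were kept (14845; 5563 left out).

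Log2(value + 1) was fitted with limma 3.58.1 (R 4.3.3) with 1 mean per group over all 19 mice and a trend in the prior variance, and p-values were adjusted over all 14845 genes. A fold change is on the log2(value + 1) scale. Genes with adjusted p under 0.1 and fold over 1.2 were called, the thresholds of the study. EdgeR 4.0.16 and DESeq2 1.42.0 on recovered reads, TMM scaling, a pseudocount of 4, no filter, array weights, covariates and left-out mice were alternatives. The fit was tested on simulated counts. Ratios were compared by two-sided exact permutation tests. Libraries of a group differed by more than sampling noise (chi-square per degree of freedom of at least 21.1). Replicates were separate mice, as the study states. The genes named were up to 10 called members of largest change per direction and comparison, the 3 highest and 3 lowest members per comparison, by mean and per length, paralogues, genes of the role lists, the 5 lowest by correlation and up to 5 called genes of each other list; other genes named were chosen after their values were seen. Members and lists were chosen with earlier results of these data known. Transcript lengths and shared windows came from GENCODE M21, in which all 86 members have a transcript and a position. Results of a few genes are not reported here.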

Additional observations from a re-analysis of the deposited data

Results flagged for a closer look

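Among 100 groups of 4 or 5 values checked with Dixon's ratio (6 measures of the family and 19 members, in 4 groups), 5 held a value far from the rest of its group. Chance sets apart about 1 in 20 such groups. Mouse X2356 had 6586 normalized counts of Rps14, above the 4570 to 4973 of the other IKKβ+/+ Ang II mice. Mouse X2385 had 769.1 of Rpl19, and X2384 had 1927 of Rps26 and 945.6 of Rps27l, each the highest of the IKKβ-/- Ang II mice. In X2403 the score of the large minus that of the small subunit was 0.069, above the other IKKβ-/- saline mice, which lay between -0.035 and -0.019. No member passed the test of a difference in the Ang II effect between genotypes.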

How the results depend on the processing

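For Ang II in IKKβ+/+ mice, the 9 calls became 3 with no filter on low values, 16 with only the compared groups in the fit, 14 with array quality weights, 4 with the length trend removed, 14 with DESeq2, 3 at an adjusted p under 0.05, 0 above a fold of 1.5 and 6 among the 38 clearly counted genes, a set added after seeing the data. All genes called higher were 6.21% with only the compared groups, 6.77% with array weights, 4.19% with the length trend removed and 7.10% with DESeq2. In either direction, 638 of all 14845 genes were called at an adjusted p under 0.05 and 752 above a fold of 1.5. Above a fold of 1.5 no member was called. The members called at an adjusted p under 0.05 all rose, while the count of all genes holds both directions. These 2 shares are therefore not of like measure. With the length trend removed, the share of members called was near that of all genes. Between genotypes with saline, the 29 calls became 52 with array quality weights, 10 with the adipocyte level as a covariate, 11 with the length trend removed, 4 at an adjusted p under 0.05 and 8 above a fold of 1.5; with the length trend removed the median fell from 0.37 to 0.18 and the difference in family score from 0.37 to 0.19. All genes called higher in this comparison were 6.88% with array weights, 0.633% with the covariate and 3.57% with the length trend removed. In either direction, 136 of all 14845 genes were called at an adjusted p under 0.05 and 504 above a fold of 1.5. Between genotypes with Ang II, DESeq2 called 3 members. Single mice left out gave 0 to 11 calls for Ang II in IKKβ+/+ mice, 0 to 2 in IKKβ-/- mice and 0 to 41 between genotypes with saline. They gave 0 to 2 calls between genotypes with Ang II and 0 for the difference of the Ang II effects. Calls among all genes in those fits are not given, so these ranges cannot be set against all genes. Over the same 19 omissions the Rps4l/Rps4x log2 ratio differed by 0.14 to 0.50 with Ang II in IKKβ+/+ mice and by -0.52 to -0.12 between genotypes with Ang II; without X2356 both had an exact permutation p of 0.0159. No result changed direction where it was called. Where not stated above, the cause of a change was not tested. No paired analysis was possible because the groups share no mouse number. Low counts and shared windows limit what can be said of the 13 subunit genes under 100 normalized counts.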
